A study of Mus musculus with 98 samples.

Results

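The 7 transcription regulators Foxn1, Pax1, Pax9, Six4, Eya1, Trp63 and Isl1, which act in the pharyngeal pouch and in thymic epithelial cells (TEC), were followed through the thymic stroma of mice. They were chosen by name, and all 7 were found in each of the 3 count tables, which list 39179 gene IDs in bulk RNA, 22231 genes in the single-cell age series and 20760 genes in the newborn single-cell data. The thymus and the parathyroid both form from the endoderm of the third pharyngeal pouch, which is surrounded by neural crest-derived mesenchyme. Pax1, Pax9, Eya1 and Six4 act together in that endoderm before the organ is formed. Foxn1 is the forkhead factor without which TEC do not mature, Trp63 (p63) maintains the growth of epithelia including TEC, and Isl1 is a LIM-homeodomain factor known from the pharyngeal mesoderm and endoderm, from motor neurons and from the heart.

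The samples fell into 3 sets. In the bulk set, 84 libraries of wild-type (WT) mice at birth (P0) and 4 weeks of age (W4) held 6 libraries for each of 14 groups of sorted cells. The epithelial groups were cortical (cTEC) and medullary (mTEC) cells at both ages and mTEChi and mTEClo at W4. The nonepithelial thymic stroma (NETS) was sorted at both ages into CD31+ endothelium, Ly51+gp38- pericytes, gp38+CD26+ cells of the capsule and gp38+CD26- cells of the medulla. In the age series, EpCAM- NETS of WT C57BL/6 mice were captured as single cells at E12.5 (1 library), E13.5 (1 library), E16.5, P0 and W4 (2 libraries each). Thymi of the earliest ages were pooled from several embryos of more than 1 litter, and E12.5 and E13.5 therefore stand on 1 pool each. In the newborn set, the total Ter119-CD45- stroma was captured from 3 libraries labelled Tbx1+/-Crkl+/- and 3 of WT littermates at P0, after fixation with RNA Protect. These compound heterozygotes carry a Tbx1 allele with a lacZ insertion and a germline null allele of Crkl, both of them in every cell of the animal.

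Bulk depth was 5785352 to 15852166 gene counts in 83 libraries and 25702 in the remaining 1, a library labelled gp38+CD26+ at W4. Levels are given as CPM, the counts of a gene scaled to 1000000 gene counts of its library. That library read 428 CPM of Foxn1, on 11 reads, and its 10 TEC marker genes summed to 19181 CPM against 138 to 299.5 in the other 5 libraries of its group. It was kept in the fits, and levels of that group are given without it. The 14 single-cell libraries held 1687 to 6587 cells with a median of 2391 to 14031 unique molecular identifiers (UMIs) per cell, and 0.430% of the barcodes of the age series and 0.206% of those of the newborn data occurred in more than 1 library. The labels do not say which bulk libraries came from separate mice, so p-values measure only the spread between these libraries.

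In the mouse genome (GRCm38, GENCODE M21) Foxn1 lies at chr11:78357577-78386558 on the minus strand, Pax1 at chr2:147361925-147393295 on the plus strand, Pax9 at chr12:56691767-56712822 on the plus strand and Six4 at chr12:73099609-73113456 on the minus strand. Eya1 lies at chr1:14168954-14310235 (minus), Trp63 at chr16:25683763-25892102 (plus) and Isl1 at chr13:116298281-116309689 (minus). Exons of Pax1 share 183 bases with AI646519 and exons of Pax9 share 189 bases with Slc25a21, in both cases on the opposite strand. Whether the bulk counting used strand is not given in the sources used here, so reads from those bases cannot be told apart.

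Because FOXN1 binds DNA through the short core GACGC, the 250 bases before the RefSeq start sites of the members were searched for GACGC and its reverse complement GCGTC. The core was found in 7423 of 32851 promoters of the RefSeq table, or 22.6%, so a match by itself describes many genes. Promoters of Foxn1, Pax1, Pax9, Six4 and Isl1 were listed there (GRCm38.p6). Of these genes, Pax1 (86 bases before the start) and Isl1 (42 bases before the start) held 1 match each, and Foxn1, Pax9 and both Six4 promoters held none. The promoter of Foxn1 (chr11:78386609-78386858, minus strand, 63.2% G or C), which names the factor, and the 2 promoters with a match (Pax1, chr2:147364744-147364993, plus strand; Isl1, chr13:116309689-116309938, minus strand) are shown, with matches in capitals.

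Foxn1: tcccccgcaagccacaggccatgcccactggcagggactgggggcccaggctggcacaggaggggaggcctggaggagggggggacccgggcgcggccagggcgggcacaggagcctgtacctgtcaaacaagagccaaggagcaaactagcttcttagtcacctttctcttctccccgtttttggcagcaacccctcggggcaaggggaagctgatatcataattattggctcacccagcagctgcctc
Pax1: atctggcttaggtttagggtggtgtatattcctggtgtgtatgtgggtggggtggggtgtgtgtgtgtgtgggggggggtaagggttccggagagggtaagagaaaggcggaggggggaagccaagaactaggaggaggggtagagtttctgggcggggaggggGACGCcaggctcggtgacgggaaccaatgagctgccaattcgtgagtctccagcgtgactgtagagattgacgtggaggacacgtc
Isl1: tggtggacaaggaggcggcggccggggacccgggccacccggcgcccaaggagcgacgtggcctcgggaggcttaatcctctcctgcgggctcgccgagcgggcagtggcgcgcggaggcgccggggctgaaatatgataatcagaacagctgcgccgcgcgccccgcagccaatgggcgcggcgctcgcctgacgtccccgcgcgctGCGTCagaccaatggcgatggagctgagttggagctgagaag

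Every member was highest in a TEC population of the bulk data, and the highest level of each lay in cTEC. Foxn1, Pax1 and Isl1 had their highest mean at W4 (598, 284 and 177 CPM), whereas Pax9, Six4, Eya1 and Trp63 had theirs at P0 (189.7, 62.03, 84.2 and 1522 CPM). Per kilobase of exon (RPKM, the CPM divided by the summed exon length), Trp63 in cTEC at P0 (181 RPKM) and Foxn1 in cTEC at W4 (186 RPKM) stood above the highest levels of Pax1 (63.2), Isl1 (44.6), Pax9 (37.5), Eya1 (10.8) and Six4 (5.71 RPKM). All 7 were higher in TEC than in NETS at P0 and at W4 by edgeR's quasi-likelihood test, where 26.4% and 31.1% of all genes tested were called higher. No fold change is given, because several members were at 0 in whole groups of NETS libraries.

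The separation of single libraries was complete for some members and not for others. Leaving out the library of 25702 counts, the lowest TEC library lay above the highest NETS library for Foxn1 (69.8 against 56.2 CPM), Pax9 (22.6 against 9.07 CPM), Eya1 (14.8 against 7.20 CPM) and Trp63 (53.2 against 34.3 CPM). For Pax1 (0.458 against 78.01 CPM), Six4 (0 against 20.7 CPM) and Isl1 (15.5 against 21.9 CPM) they overlapped. The share of all genes whose libraries separate is not given, so here and below a lack of overlap only describes the members. In bulk RNA, fewer cells of a type and less RNA per cell cannot be told apart.

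**Figure D1:**
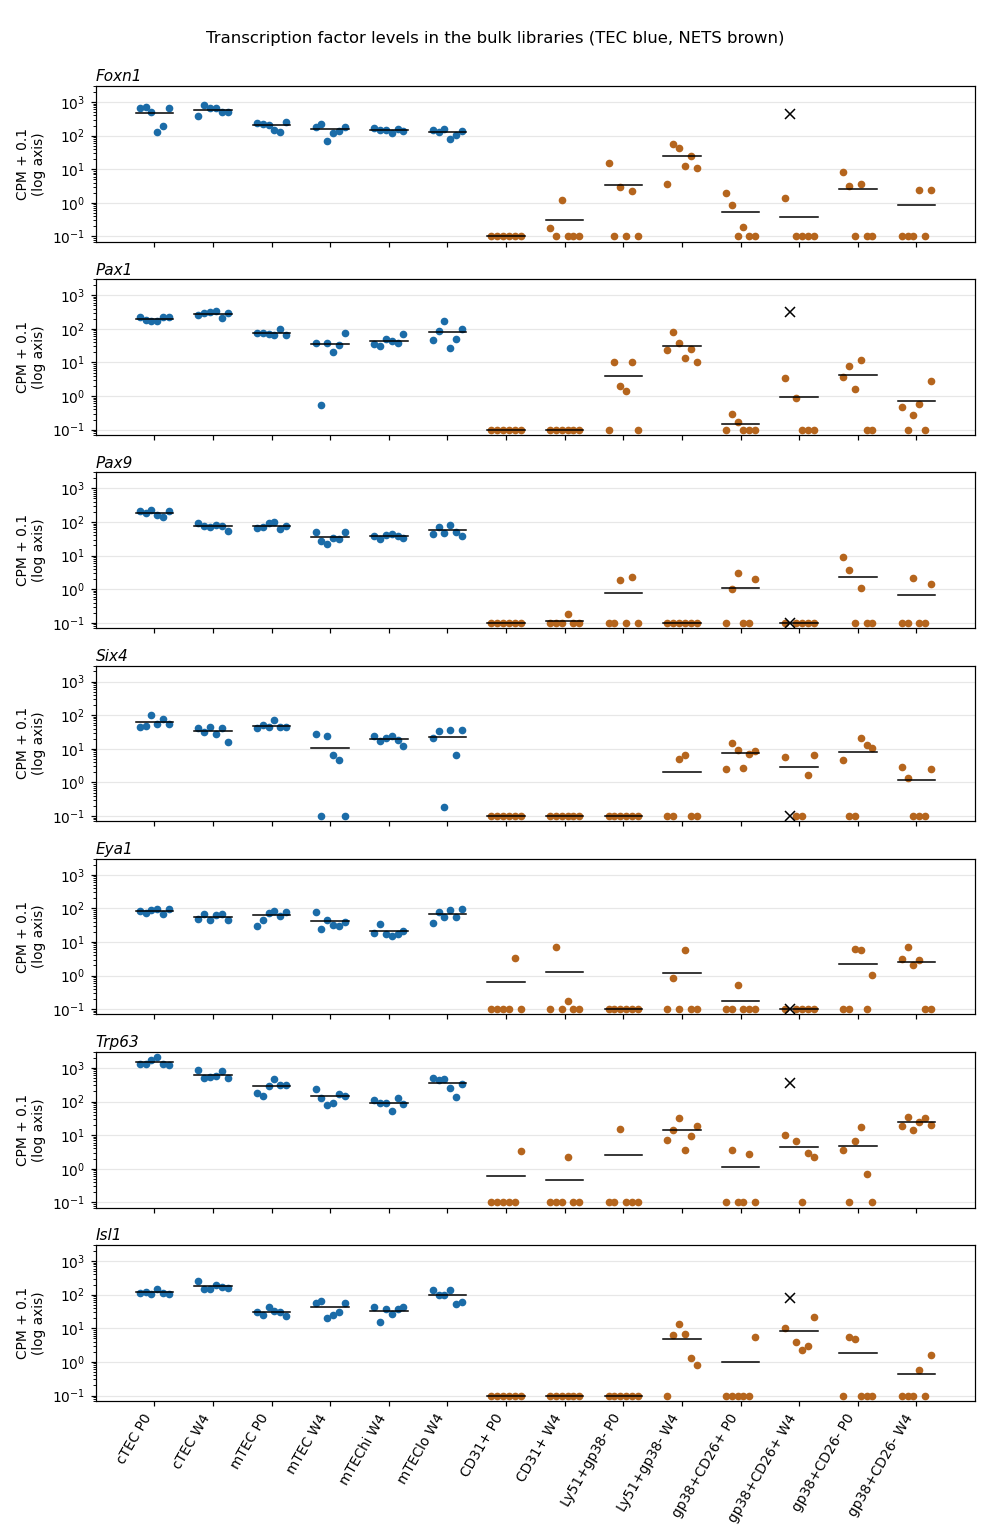
Level of the 7 members in each bulk library (CPM plus 0.1, log axis) by sorted population and age, with TEC groups in blue, NETS groups in brown, a bar at the mean and a cross for the gp38+CD26+ library of 25702 counts. Every member has its highest mean in cTEC, and the cross lies in the range of the TEC libraries for Foxn1 (428 CPM), Pax1 (311 CPM) and Trp63 (350 CPM).

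Foxn1, the master regulator of TEC maturation, read 131.3 CPM in the lowest, 581 in the median and 725 in the highest cTEC library at P0. The mTEC of the same age read 129, 213 and 255 CPM, so that the groups overlapped. At W4 cTEC read 384, 594.2 and 821.6 CPM and mTEC 69.8, 160.5 and 225 CPM, without overlap. The fitted difference was a log2 fold change of 1.18 ± 0.30 (SE) at P0 (adjusted p = 0.002) and 1.89 ± 0.30 at W4 (adjusted p = 8.4e-06), both by edgeR with Benjamini-Hochberg adjustment over 18847 genes. The overlap at P0 came from 2 cTEC libraries with the title prefix DFCK, at 131.3 and 194.8 CPM.

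Pax1, a paired-box factor of the pouch that remains in TEC, read 173.01, 204.5 and 228.9 CPM (lowest, median, highest) in cTEC at P0 and 64.6, 72.9 and 100.7 CPM in mTEC. At W4 the values were 205, 298 and 343 CPM in cTEC and 0.458, 34.9 and 74.8 CPM in mTEC. The groups did not overlap at either age, and the log2 difference was 1.36 ± 0.46 at P0 (adjusted p = 0.019) and 2.99 ± 0.49 at W4 (adjusted p = 1.2e-05). Its paralogue Pax9 read 143.1, 200.6 and 220.7 CPM in cTEC against 61.9, 72.9 and 98.7 CPM in mTEC at P0. At W4 Pax9 had 52.9, 75.3 and 93.6 CPM in cTEC and 22.6, 31.9 and 49.3 CPM in mTEC. These groups did not overlap either, with log2 differences of 1.24 ± 0.20 at P0 (adjusted p = 1e-05) and 1.03 ± 0.20 at W4 (adjusted p = 0.00015).

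Trp63, which sustains proliferative epithelium, read 1249, 1313 and 2182 CPM in cTEC at P0 and 141.04, 298.5 and 454.8 CPM in mTEC. At W4 it read 496.6, 542.8 and 850.2 CPM in cTEC and 80.9, 137.2 and 239.1 CPM in mTEC. The libraries did not overlap, and the log2 difference was 2.40 ± 0.30 at P0 (adjusted p = 8.4e-08) and 2.05 ± 0.29 at W4 (adjusted p = 1.5e-06). Isl1 read 104.2, 111.8 and 148.4 CPM in cTEC and 23.7, 30.98 and 43.7 CPM in mTEC at P0. At W4 it had 143.3, 166.8 and 247.2 CPM in cTEC and 20.7, 44.6 and 65.98 CPM in mTEC. Isl1 thus stood higher in cTEC without overlap at both ages, by 1.85 ± 0.28 (adjusted p = 2.3e-06) and 1.957 ± 0.28 (adjusted p = 1.1e-06) on the log2 scale.

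Six4 and Eya1, a homeodomain factor and the phosphatase cofactor it recruits, did not pass the test between cTEC and mTEC. Six4 differed by 0.30 ± 0.77 on the log2 scale at P0 (adjusted p = 0.81) and by 1.68 ± 0.80 at W4 (adjusted p = 0.096). Eya1 differed by 0.39 ± 0.26 (adjusted p = 0.26) and 0.37 ± 0.26 (adjusted p = 0.28). Six4 was at 0 in 2 of the 6 mTEC libraries at W4 and reached 28.0 CPM in another. Without mTEC replicate 1 at W4, the library with the highest Eya1 (78.8 CPM) and Six4 (28.0 CPM) of its group, both members passed there, with 2.32 (adjusted p = 0.032) for Six4 and 0.68 (adjusted p = 0.031) for Eya1.

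Counted together, 5 of the 7 members were higher in cTEC at each age and none was lower, where 8.28% of all genes were called higher and 29.2% lower at P0, and 11.5% and 26.4% at W4. The median log2 difference of the members was 1.24 at P0 and 1.89 at W4, beside -0.35 and -0.24 over all genes tested. With the 3 libraries of a title prefix on each side, whose meaning the labels do not give, the members called at P0 numbered 3 in DFCK and 4 in TXCK, and at W4 they numbered 5 and 4. Calls over all genes were fewer in these fits too, with 2747 and 4386 at P0 beside 7064 with all libraries, and 2749 and 4449 at W4 beside 7140. Each member called in all libraries kept its sign within both prefixes, with 0.86 and 1.35 for Foxn1 and 1.41 and 1.27 for Pax1 in DFCK and TXCK at P0. Markers of other cells differed between these groups too: mesenchymal markers summed to 15.6 to 133.2 CPM in cTEC and 401 to 523 CPM in mTEC at P0, and thymocyte markers to 392 to 1783 CPM in cTEC and 18.6 to 42.9 CPM in mTEC at W4. The 10 TEC markers summed to 15938 to 25278 CPM in cTEC and 5255 to 7027 CPM in mTEC at P0. At W4 they summed to 21203 to 29462 CPM in cTEC and 5011 to 7811 CPM in mTEC. The part of these differences in the cortical excess was not tested.

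Whether the cortical excess changed with age was tested as an interaction. None of the 7 members was called by edgeR, where 4.79% of all genes were called, and DESeq2 called 0. An unadjusted p below 0.05 was found for 1 member and for 3152 of 18847 genes. The member with that p was Pax1, whose excess was larger at W4 by 1.63 ± 0.65 (adjusted p = 0.16). Without mTEC replicate 6 at W4, which had the highest Pax1 level of its group (74.8 CPM), the value was 2.12 and the adjusted p was 0.047.

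Among the mTEC of 4-week-old mice, Trp63, Eya1 and Isl1 were lower in the mTEChi than in the mTEClo fraction. Trp63 read 53.2, 90.9 and 127.1 CPM (lowest, median, highest) in mTEChi and 139.7, 378.9 and 515.8 CPM in mTEClo. Eya1 read 14.8, 18.0 and 34.6 CPM against 37.6, 67.2 and 92.8 CPM. Isl1 read 15.5, 37.1 and 43.1 CPM against 52.9, 96.9 and 139.5 CPM. None of these groups overlapped. The log2 differences were -1.68 ± 0.29 for Trp63 (adjusted p = 7.1e-05), -1.48 ± 0.26 for Eya1 (adjusted p = 0.00011) and -1.27 ± 0.27 for Isl1 (adjusted p = 0.00082). These are 3 of 7 members, where 5.8% of all genes were called lower and 17.9% higher. Marker sums differed between these fractions without overlap as well: the TEC markers summed to 5676 to 7076 CPM in mTEChi and 8979 to 11438 CPM in mTEClo, cartilage markers to 223 to 318 and 407 to 615 CPM, and neuronal markers to 59.4 to 97.1 and 14.1 to 32.1 CPM. Their part in the differences was not tested.

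The other members did not pass between these fractions. Foxn1 had 116.02, 147.01 and 163.6 CPM in mTEChi and 80.8, 132.5 and 156.9 CPM in mTEClo, a log2 difference of 0.47 ± 0.29 (adjusted p = 0.29, 95% interval -0.13 to 1.06). Pax1 differed by -0.57 ± 0.46, Pax9 by -0.31 ± 0.20 and Six4 by 0.07 ± 0.77, and all of these groups overlapped. Within the title prefixes, 2 members were called in DFCK (Trp63 and Isl1, among 2022 genes) and 1 in TXCK (Eya1, among 1759), beside 4471 genes with all libraries, while the signs of these 3 did not change.

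**Figure D2:**
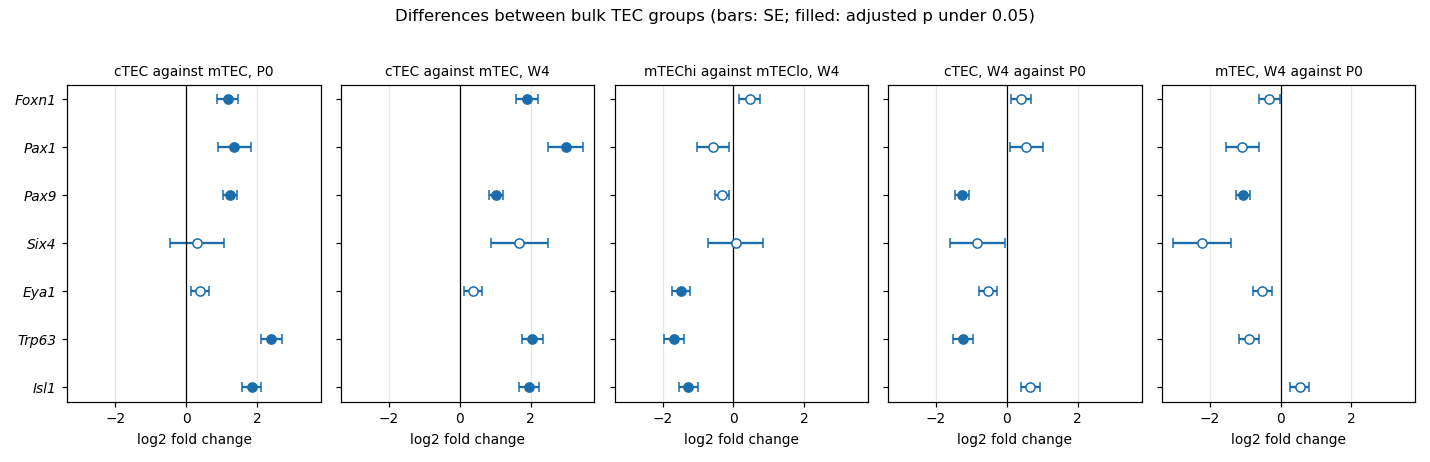
Fitted log2 fold change with its SE for each member in 5 comparisons of sorted TEC, where a filled point marks an adjusted p below 0.05 by edgeR. Foxn1, Pax1, Pax9, Trp63 and Isl1 stand to the right in both cortical comparisons, and Eya1, Trp63 and Isl1 to the left in mTEChi against mTEClo.

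From birth to 4 weeks, Pax9 and Trp63 fell in cTEC. Pax9 fell from a mean of 189.7 ± 31.8 to 75.6 ± 13.54 CPM (SD, n = 6 per group) and Trp63 from 1522 ± 376 to 622 ± 157 CPM, in neither case with overlap. On the log2 scale this was -1.26 ± 0.20 for Pax9 (adjusted p = 3e-05) and -1.24 ± 0.29 for Trp63 (adjusted p = 0.0028), the only 2 of 7 members called where 4% of all genes were called lower and 10.1% higher. Eya1 (-0.53 ± 0.26, adjusted p = 0.18) and Six4 (-0.83 ± 0.78, adjusted p = 0.62) did not pass, although their libraries did not overlap between the ages. Foxn1 (0.40 ± 0.29, adjusted p = 0.47), Pax1 (0.55 ± 0.45, adjusted p = 0.54) and Isl1 (0.65 ± 0.27, adjusted p = 0.1) were above 0 and did not pass. Markers of other cells moved with age in these cTEC libraries: 6 thymocyte markers summed to 25.3 to 48.5 CPM at P0 and 392 to 1783 CPM at W4, and 8 mesenchymal markers to 15.6 to 133.2 and 362 to 2836 CPM. All 14 had reads at W4, and at P0 1 mesenchymal marker was at 0 in every library. Their part in the age differences was not tested.

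The calls in cTEC depended on which libraries entered the fit. In a fit of the 12 cTEC libraries alone, 6 members were called among 2902 genes, beside 2 among 2656 in the fit of all TEC, with Pax1 and Isl1 higher at W4 (adjusted p = 0.01 and 0.0069) and Eya1 and Six4 lower (adjusted p = 0.024 and 0.038). Within the prefixes 0 members were called in DFCK and 1 in TXCK, where calls over all genes were 474 and 1378 beside 2656 with all libraries. Pax9 read -1.03 in DFCK and -1.48 in TXCK and Trp63 -1.29 and -1.17, whereas Foxn1, which was not called, read 0.99 and -0.05.

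In mTEC 1 of 7 members passed, again Pax9, where 2.83% of all genes were called lower. Pax9 fell from 61.9, 72.9 and 98.7 CPM to 22.6, 31.9 and 49.3 CPM, by -1.05 ± 0.20 on the log2 scale (adjusted p = 0.00077). Trp63 (-0.89 ± 0.29, adjusted p = 0.055), Six4 (-2.22 ± 0.81, adjusted p = 0.1) and Pax1 (-1.08 ± 0.46, adjusted p = 0.18) lay below 0, and Isl1 (0.54 ± 0.27, adjusted p = 0.28) above. Without mTEC replicate 1 at W4, 4 members were called among 1407 genes, with Six4 at -2.87, Eya1 at -0.85 and Trp63 at -1.15 besides Pax9. Leaving out mTEC replicate 5 or 6 at W4, or replicate 1 or 2 at P0, gave 2 called members each, among 1120, 1160, 912 and 1028 genes. Within the prefixes no member was called, and calls over all genes were 555 in TXCK and fewer still in DFCK, beside 1235 with all libraries. Pax9 read -1.22 in DFCK and -0.89 in TXCK.

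Genes known as targets of these factors were read beside them. Of 13 FOXN1 targets, 12 were higher and 1 lower in cTEC than in mTEC at P0 (median log2 difference 2.85, all genes -0.35), where 8.28% of all genes were called higher and 29.2% lower. The same counts held at W4 (median 3.71, all genes -0.24), where these shares were 11.5% and 26.4%. The largest at W4 were Prss16 (8.32) and Psmb11 (8.10), a serine protease and the thymoproteasome subunit of cTEC, and the chemokine Cxcl12 (5.71). In mTEChi against mTEClo 6 of the 13 were higher and 4 lower (17.9% and 5.8% of all genes), with Ccl25, the chemokine that draws thymocyte progenitors, at 3.02, Cd83 at 2.83 and the growth factor receptor Fgfr2 at -3.81. From P0 to W4 in cTEC, 3 targets rose (Ccl25 1.90, Tbata 1.63, Cd83 1.48), where 10.1% of all genes did, and 10 did not pass.

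Of 13 p63 targets, 9 were lower and none higher in mTEChi than in mTEClo (median log2 difference -1.19, all genes 0.25), where 5.8% of all genes were called lower and 17.9% higher. The Notch ligand Jag2 (-4.32), the basal keratin Krt5 (-3.30) and P-cadherin Cdh3 (-2.32) moved most. Between cTEC and mTEC 6 were higher and 5 lower at P0 (8.28% and 29.2% of all genes), and 5 were higher and 3 lower at W4 (11.5% and 26.4%). Jag2 was higher in cTEC, by 2.67 at P0 and 2.57 at W4. The keratin Krt15 had a mean of 0.0808 CPM in cTEC and 73.7 CPM in mTEC at P0, and of 1.31 and 85.9 CPM at W4. In cTEC from P0 to W4, 4 p63 targets rose and none fell (10.1% and 4% of all genes), among them Krt14 (2.62) and Krt5 (1.19), while Trp63 itself fell.

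Other genes of the pouch network numbered 22, of which 20 passed the filter. At P0 1 was higher and 5 lower in cTEC than in mTEC, and at W4 5 were higher and 3 lower. These are 6 and 8 calls among 20 genes, where 37.5% and 37.9% of all genes were called, so the counts lie near the background. Of 18 other TEC factors, 13 were lower in cTEC at P0 and 15 at W4 (29.2% and 26.4% of all genes), and 2 were higher at each age (8.28% and 11.5%). At W4 the lower ones included Aire, which drives tissue-restricted genes in mTEC, at -8.55 on the log2 scale. In mTEChi against mTEClo 5 of these were higher, led by Aire (2.55), Ovol1 (1.80) and Fezf2 (1.67), and 3 lower, where 17.9% and 5.8% of all genes were.

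By a Pearson correlation of mean log2(CPM + 1) over the 14 sorted groups, the genes most like each member were found among 19968 others. For Foxn1 these were Rab11fip4, Mreg and Tmem102 (r = 0.99 each), and for Pax1 Rab11fip4 (0.99), Foxn1 (0.98) and Slc46a2 (0.97). Pax9 was nearest to Kdf1, Gm43517 and Rnf43 (0.99 each), Eya1 to Kdf1 (0.99), Cdh1 (0.98) and Ripk4 (0.98), and Six4 to Chd6 (0.95), Tert (0.94) and Alcam (0.93). Trp63 was nearest to Il7, the cytokine of thymocyte precursors (0.98), Smim10l2a (0.98) and Lamb3 (0.97), and Isl1 to Nfe2l3 (0.99), Cdh3 (0.98) and Fam213b (0.98). The 14 points of each correlation share the contrast of TEC with NETS.

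The newborn single cells placed the same genes within TEC. They carry deposited labels, of which perinatal cortical TEC (PcTEC, 4826 cells), mature cortical TEC (McTEC, 1649), intertypical TEC (ItTEC, 1166), mature medullary TEC (MmTEC, 518), proliferating TEC (PrTEC, 487), neural TEC (nTEC, 252) and post-Aire mTEC (PAmTEC) had at least 5 cells in all 6 libraries. Structural (sTEC) and tuft-like TEC (TlTEC) were rarer. The labels were assigned from the same counts, so their levels are described without a test. Levels are UMIs summed over the cells of a label in a library, scaled to 1000000 UMIs (CPM). Values are the mean ± SD over the libraries of both genotypes together, so the SD includes any difference between Tbx1+/-Crkl+/- and WT.

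Foxn1 was at 149.5 ± 41.6 CPM in McTEC and 117.99 ± 22.5 CPM in PcTEC, at 87.3 ± 32.2 CPM in MmTEC, and at 20.03 ± 18.4 CPM in PAmTEC. Levels of neighbouring labels overlapped, with 101.8 to 202.5 CPM in McTEC libraries and 52.1 to 136.5 CPM in MmTEC, while PAmTEC libraries (0 to 43.9 CPM) lay below all MmTEC libraries. Pax1 fell off more steeply between cortical and medullary labels, from 339 ± 112.02 CPM in McTEC and 310 ± 98.6 CPM in PcTEC to 50.3 ± 23.3 CPM in MmTEC and 29.2 ± 24.1 CPM in PAmTEC. The lowest PcTEC library (172.1 CPM) lay above the highest MmTEC library (86.6 CPM). Cells labelled as thymocytes, which should lack these genes, read 71.9 ± 27.6 CPM of Pax1 and 26.3 ± 11.3 CPM of Foxn1. The Pax1 levels of MmTEC and PAmTEC and the Foxn1 level of PAmTEC lay below these and are not read as expression. Pax9 spanned a narrower range, with 137.9 ± 19.7 CPM in PcTEC, 161.8 ± 47.5 CPM in PrTEC, 115.7 ± 22.1 CPM in ItTEC and 66.04 ± 14.2 CPM in MmTEC.

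Trp63 was at 409 ± 138.6 CPM in McTEC, 313 ± 72.5 CPM in PcTEC and 291 ± 82.5 CPM in ItTEC, and at 73.7 ± 32.9 CPM in MmTEC. Isl1 followed the same division, with 183.4 ± 69.2 CPM in PrTEC, 155.7 ± 33.3 CPM in McTEC, 151.5 ± 22.9 CPM in PcTEC and 28.95 ± 11.96 CPM in MmTEC. For both genes the lowest PcTEC library (236.8 and 116.6 CPM) was above the highest MmTEC library (126.5 and 45.7 CPM). Cells labelled as thymocytes read 68.0 ± 41.5 CPM of Trp63 and 42.5 ± 37.1 CPM of Isl1. The MmTEC levels of both genes are therefore not read as expression. Six4 ranged from 25.4 ± 10.9 CPM in MmTEC to 52.0 ± 27.7 CPM in PrTEC, and was at 2.51 ± 3.94 CPM in nTEC.

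Eya1 was at 122.7 ± 39.2 CPM in PrTEC, 90.9 ± 23.9 CPM in PcTEC and 48.6 ± 24.6 CPM in MmTEC, and stood apart in TlTEC, the label named for likeness to the chemosensory tuft cells of mucosae. A single library held 5 or more TlTEC cells, and there Eya1 was at 772 CPM. Over the 21 TlTEC cells of all libraries together, 49 Eya1 UMIs in 17 cells among 77479 UMIs made 632 CPM (exact Poisson interval 468 to 836, counting error only). The same cells held no UMI of Foxn1 or Trp63, where 3 UMIs would have made 38.7 CPM. With cells thinned to 2000 UMIs, the Eya1 level in the TlTEC of that library was 556 CPM.

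**Figure D3:**
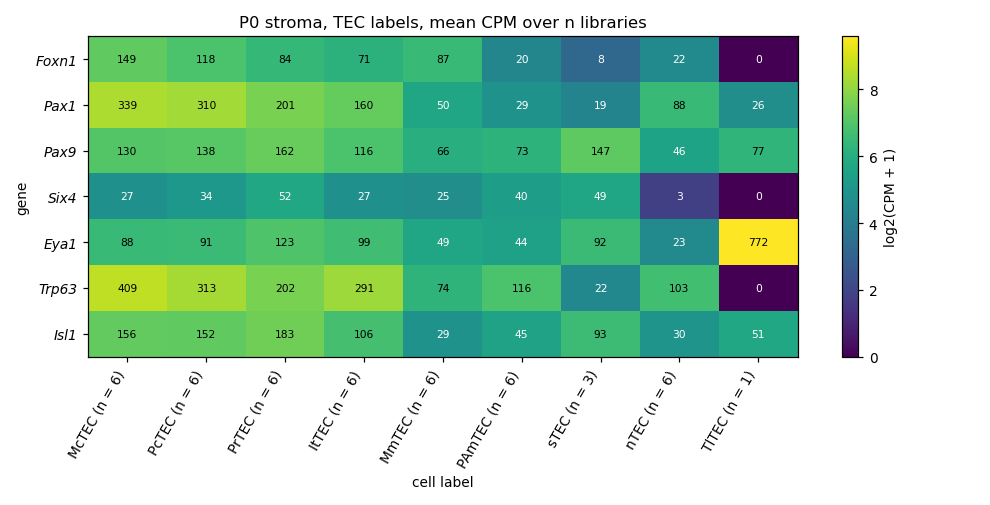
Mean level of the 7 members in 9 TEC labels of the newborn stroma (CPM over the libraries of both genotypes with at least 5 cells, number of libraries given), coloured by log2(CPM + 1). Pax1, Trp63 and Isl1 are several times lower in MmTEC than in McTEC and PcTEC, and Eya1 is highest in TlTEC (772 CPM, 1 library).

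The share of single cells with a UMI was counted as well. A UMI of Trp63 was found in 50.2% of TEC, of Pax1 in 49.4%, of Pax9 in 32.5%, of Isl1 in 31.9%, of Foxn1 in 29.3%, of Eya1 in 22.7% and of Six4 in 9.92%. Of 9083 TEC, 86.2% held a UMI of at least 1 member and 40.9% of at least 3. Among 11833 NETS of the same libraries these shares were 17.7% and 0.794%. After thinning to 2000 UMIs, 38.5% of TEC held Trp63, 37.7% Pax1 and 19.0% Foxn1.

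The members were also read in cells that should lack them. Over the 535 cells labelled as thymocytes, the mean level was 19.7 to 38.3% of the TEC level, depending on the member, and in NETS 5.02 to 15.9%. Foxn1 was found in 5.23% of thymocytes (median 2071 UMIs per cell) and in 2.17% of NETS (median 2996 UMIs) against 29.3% of TEC (median 2949 UMIs). All 7 shares in NETS lay below those in thymocytes, and the levels of pooled newborn NETS are therefore not read as expression. At least 3 members were found in 5.61% of thymocytes and 0.794% of NETS. Whether the reads in thymocytes come from free RNA or from other cells under that label was not tested. Isl1 in the mesothelium (Mes), 1 of the NETS labels, was above that of thymocytes, with 9 UMIs in 7 of 21 cells making 123.6 CPM (Poisson interval 56.5 to 234.7) against 38.8 CPM (29.2 to 50.5).

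Loss of 1 copy each of Tbx1 and Crkl was compared with WT in the newborn TEC. Depth per cell was lower in the mutant-labelled libraries, with medians of 2551, 2391 and 2506 UMIs against 2577, 3631 and 4686 in WT. Its part in the genotype comparisons of TEC and NETS was not tested. The targeted genes do not separate the labels: Crkl read 24.1, 23.6 and 26.9 CPM over all cells of the 3 libraries labelled Tbx1+/-Crkl+/- and 23.0, 25.1 and 18.4 CPM in WT, and Tbx1 had 0 to 19 UMIs per library. Both are counted from 3' tags, which may lie outside the deleted or interrupted part, so these values check nothing.

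In pooled TEC 0 of 7 members were called by edgeR, where 0% of 13718 genes were called, and DESeq2 called 0. An unadjusted p below 0.05 was found for 1 member and for 851 of all genes. Trp63 was the member with that p. It read 385, 283 and 392 CPM in the mutant-labelled libraries and 242, 239 and 224 CPM in WT, without overlap, and the log2 difference was 0.56 ± 0.21 (adjusted p = 0.69). Pax1 read 244, 247 and 152.6 CPM against 237.5, 362 and 358 CPM, with overlap, and differed by -0.61 ± 0.29 (adjusted p = 0.69). Foxn1 read 105.8, 82.4 and 119.1 CPM against 97.5, 143.7 and 118.3 CPM, a log2 difference of -0.27 ± 0.22 (adjusted p = 0.71). For Foxn1 the 95% interval of -0.77 to 0.23 includes both signs, and the data do not show that the genotypes are alike.

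The remaining members lay near 0, with -0.13 ± 0.21 for Pax9, 0.01 ± 0.22 for Six4, 0.19 ± 0.26 for Eya1 and 0.06 ± 0.22 for Isl1. The paper reports lower frequencies of McTEC and ItTEC and higher ones of PcTEC, PAmTEC and sTEC in the mutants. The part of this mix in pooled TEC was not tested. Single labels were tested where every library had at least 20 cells (ItTEC, McTEC, MmTEC, PcTEC and PrTEC). Of 34 tests of a member in a label 0 were called, 5 had an unadjusted p below 0.05, and DESeq2 called 0, where 0.0456% of all tests were called. Such p over all genes numbered 217 of 7190 in ItTEC, 463 of 8686 in McTEC and 604 of 6092 in MmTEC. In PcTEC they numbered 877 of 11954 and in PrTEC 744 of 5572. Trp63 was above WT in 5 of 5 labels, by 0.23 to 0.86 on the log2 scale, with 0.81 ± 0.30 in McTEC. Pax1 was above WT in 1 of 5. The labels come from the same libraries, so they are not independent. No gene at all was called in pooled TEC, so no gene list could have a call there. Within labels 1 list gene was called in PrTEC, the p63 target Krt14, at -1.80 (adjusted p = 0.003). FOXN1 targets had a median log2 difference of -0.25 in pooled TEC (all genes 0.03). It was -0.29 in PcTEC, -0.27 in McTEC and -0.17 in PrTEC, but 0.06 in ItTEC and 0.21 in MmTEC. These medians were not tested. The paper reports lower FOXN1 target expression in mutant PcTEC, from a Wilcoxon rank sum test.

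In pooled NETS of the same libraries all 7 differences were above 0 (0.56 to 1.56). None was called by edgeR, where 0% of 13398 genes were called. An unadjusted p below 0.05 was found for 5 members and for 1147 of all genes. DESeq2 called 2 members, among 36 genes in all. Trp63 read 13.4, 32.7 and 20.1 CPM in the mutant-labelled libraries and 7.62, 8.07 and 6.57 CPM in WT, a log2 difference of 1.56 ± 0.29 (adjusted p = 0.2), and did not overlap. The 10 TEC markers moved in the same direction in these NETS, with a sum of 650 to 1280 CPM against 490 to 637 CPM in WT. Trp63 of the thymocytes did too, at 100.2 ± 29.4 against 35.7 ± 17.8 CPM. The part of free epithelial RNA in these differences was not tested.

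In the age series the cells were sorted without EpCAM+ epithelium, and the members were low at all ages. Foxn1 had 0 to 9 UMIs per library. It read 0 CPM at E12.5, where 3 UMIs would have made 0.102 CPM, then 0.0836 at E13.5, 0.110 and 0.0430 at E16.5, 0.0992 and 0.0592 at P0, and 0.315 and 0.102 CPM at W4. Cells with an Epcam UMI made up 4.71% at E12.5, 2.44% at E13.5 and 0.315 to 1.52% later. The epithelial factor was thus close to 0 in the early NETS, while several pouch factors were not.

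Pax9 was at 19.8 CPM at E12.5, from 582 UMIs in 239 cells, and at 3.40 CPM at E13.5. It then read 0.183 and 0.247 CPM at E16.5, 1.11 and 0.178 at P0 and 0.105 and 0.154 at W4. Isl1 read 10.6 CPM at E12.5 and 20.9 CPM at E13.5, the latter from 1496 UMIs in 1052 cells. From E16.5 on it had 0.0366 and 0.0967, 3.41 and 0.178, and 1.01 and 1.92 CPM. Both early libraries exceeded every later library for Pax9 and Isl1, and P0 replicate 1 lay above replicate 2 in both genes. Of the 206 Isl1 UMIs of P0 replicate 1, 150 lay in its 228 mesothelial cells, a label with 7 cells in replicate 2. Genes of the parathyroid also differed between these libraries: its hormone Pth read 1.42 CPM at E13.5, 2.66 CPM in P0 replicate 1 and at most 0.0489 CPM elsewhere, and the secretory granule protein Chga read 2.17 CPM at E12.5, 18.4 CPM at E13.5, 1.14 CPM in P0 replicate 1 and 0.0256 to 0.318 CPM elsewhere. Their part in these levels was not tested.

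Eya1 read 6.42 CPM in the E12.5 library and 6.01 CPM in the next, against 0.204 to 1.40 CPM in the later libraries. Six4 was at 13.51 and 6.86 CPM and then at 2.54 to 4.05 CPM. Again neither overlapped. Pax1 read 2.31 CPM at E12.5 (68 UMIs in 19 cells), 1.23 at E13.5 and 0.370 to 1.959 CPM later, with overlap. Trp63 went the other way, with 0.170 and 0.0836 CPM in the early libraries, 0.208 to 0.607 CPM at E16.5 and P0 and 3.36 and 4.00 CPM at W4.

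**Figure D4:**
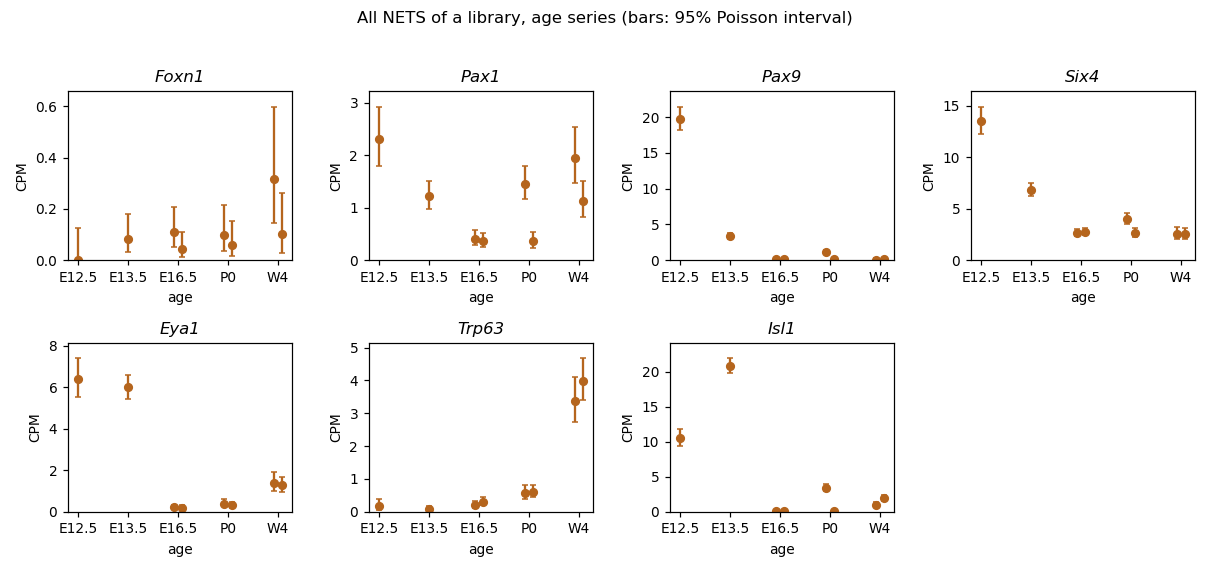
Level of the 7 members in the NETS libraries of the age series (CPM of summed UMIs with 95% Poisson intervals, which cover counting error only) at 5 ages. Pax9, Six4, Eya1 and Isl1 are highest at E12.5 or E13.5, and Trp63 is highest in both W4 libraries (3.36 and 4.00 CPM).

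The mean of E12.5 and E13.5 was tested against the mean of the later ages, where each early age has 1 library and is assumed to vary like the others. Called members numbered 5 of 7, where 66.7% of all 17858 genes were called (32.7% higher and 33.9% lower), so the count itself is not a result about these genes. The log2 differences were 4.74 ± 0.52 for Pax9 (adjusted p = 0.00038), 4.49 ± 0.80 for Isl1 (adjusted p = 0.0032), 3.53 ± 0.14 for Eya1 (adjusted p = 8.1e-06), 1.54 ± 0.15 for Six4 (adjusted p = 0.00026) and -2.97 ± 0.32 for Trp63 (adjusted p = 0.00036). Foxn1 (adjusted p = 0.1) and Pax1 (0.83 ± 0.48, adjusted p = 0.17) did not pass. Without P0 replicate 1, Pax1 passed at 1.26 (adjusted p = 0.0052). In a single test over the 5 ages 5 members were called, where 76.1% of all genes were. Isl1 was no longer called without either E16.5 or either W4 library, and Pax1 was called without either P0 library. Each of these fits leaves 1 library at that age.

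Of the other genes of the pouch network, 15 of 19 tested were higher in the early NETS and 1 was lower (median log2 difference 1.12, all genes -0.01), where 32.7% of all genes were called higher and 33.9% lower. Tbx1, a T-box factor of the pharyngeal apparatus, was higher by 4.08 ± 0.22 and the Eya partner Dach2 by 3.48 ± 0.24. Markers of other cells moved with age as well. Neuronal markers summed to 300.5 and 485 CPM at E12.5 and E13.5 against 33.9 to 66.1 CPM later, and cartilage markers to 206 and 76.0 CPM against 12.1 to 297 CPM. TEC markers summed to 26.3 and 16.6 CPM early and 8.62 to 63.7 CPM later, and their members differed: Epcam read 5.09 and 2.30 CPM early and 0.281 to 1.64 CPM later, whereas Krt8 read 1.39 and 2.37 CPM early and 2.08 to 19.6 CPM later. Without the cells that held an Epcam UMI the same 5 members were called between early and later ages, with the same signs. That step leaves out few cells and cannot take free epithelial RNA out of the others. The part of such RNA was not tested. The part of neuronal RNA in the early levels was not tested.

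The same comparison was made within 11 labels that had at least 20 cells in every library. Of 45 tests of a member 35 were called, 34 of them higher early, where 49.2% of all tests were called, 23.8% higher and 25.5% lower. Isl1 was higher in 11 of 11 labels, Six4 in 8 of 9 tested, Pax9 in 7 of 8 and Eya1 in 7 of 7, whereas Pax1 was higher in 1 of 6 and Trp63 was lower in 1 of 4. Foxn1 passed the count filter in none. Pax9 and Eya1 were each at 0 in 9 of 18 labels of E16.5 replicate 1. Labels in which they were tested may thus have passed the count filter through the early libraries alone. The share of higher calls is therefore not read as a result about these members. Without the E12.5 library 22 tests of a member were called, among 53791 calls over all genes, and without the E13.5 library 23 among 51785, beside 35 among 66771 with both.

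Labels differed within the early libraries. At E12.5 Pax9 was at 65.6 CPM in the capsular fibroblasts CapFb2a (159 UMIs, in 65 of 159 cells), at 28.5 CPM in CapFb2b and at a median of 16.8 CPM over the 18 labels with at least 5 cells, but at 0.323 CPM in neural crest cells (NC). The highest level, 119.3 CPM in CapFb4, rested on 8 UMIs in 6 cells. Six4, unlike Pax9, had its highest level in NC at both ages, 26.4 CPM at E12.5 and 14.01 CPM at E13.5. The label with the next highest Six4 was a capsular fibroblast at both ages, CapFb1b in the E12.5 library and CapFb3 in the E13.5 library. Pax1 was at 8.39 CPM in CapFb1a (48 UMIs, in 12 of 442 cells) and at 0 in 15 labels. Foxn1 was at 0 in all 18 labels at E12.5, and Trp63 in 16.

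Isl1 stood out in arterial endothelium (EnA), where it reached 223 CPM at E13.5 (317 UMIs, in 98 of 140 cells, Poisson interval 199 to 249 CPM). The other labels of that library lay between 7.44 and 26.8 CPM, with a median over all 18 of 17.4 CPM. At E12.5 EnA read 81.2 CPM, from 13 UMIs in 5 of 10 cells, and the label with the next highest level 18.2 CPM. In later libraries EnA was at 0 in both E16.5, both W4 and 1 P0 library and at 36.2 CPM (10 UMIs, in 5 of 29 cells) in P0 replicate 1.

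The Isl1-positive EnA cells of E13.5 carried the endothelial genes Pecam1 (801 CPM, in 99.0% of cells) and Cdh5 (643 CPM), against 1002 and 781 CPM in the Isl1-negative cells of that label. Kdr, the VEGF receptor, was at 251 against 585 CPM, and Krt18, a keratin of simple epithelia, at 202 against 88.3 CPM. The epithelial genes Epcam and Cdh1 were at 0 in the positive cells, while the claudin Cldn7 was in 36.7% of them (52.6 CPM) against 21.4% of the negative cells (24.3 CPM), and Krt8 in 4.08% against 2.38%. Stmn2, a gene of growing neurites, was in 99.0% of the positive cells at 1841 CPM and in 100% of the negative cells at 1337 CPM. The low even level of Isl1 in the remaining labels at E13.5 had a counterpart in neuronal genes, with Elavl3 at 1.9 to 16.8 CPM over the labels. In the mesothelium Isl1 was at 14.7 CPM at E12.5 and 12.7 CPM at E13.5, within the range of the other labels, and at 29.8 to 113.7 CPM in the 5 later libraries that had at least 5 such cells. Mes was the label with the highest Isl1 in each of these 5, and in the newborn stroma Mes was at 124.9 ± 39.9 CPM (n = 3 libraries, 20 cells).

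**Figure D5:**
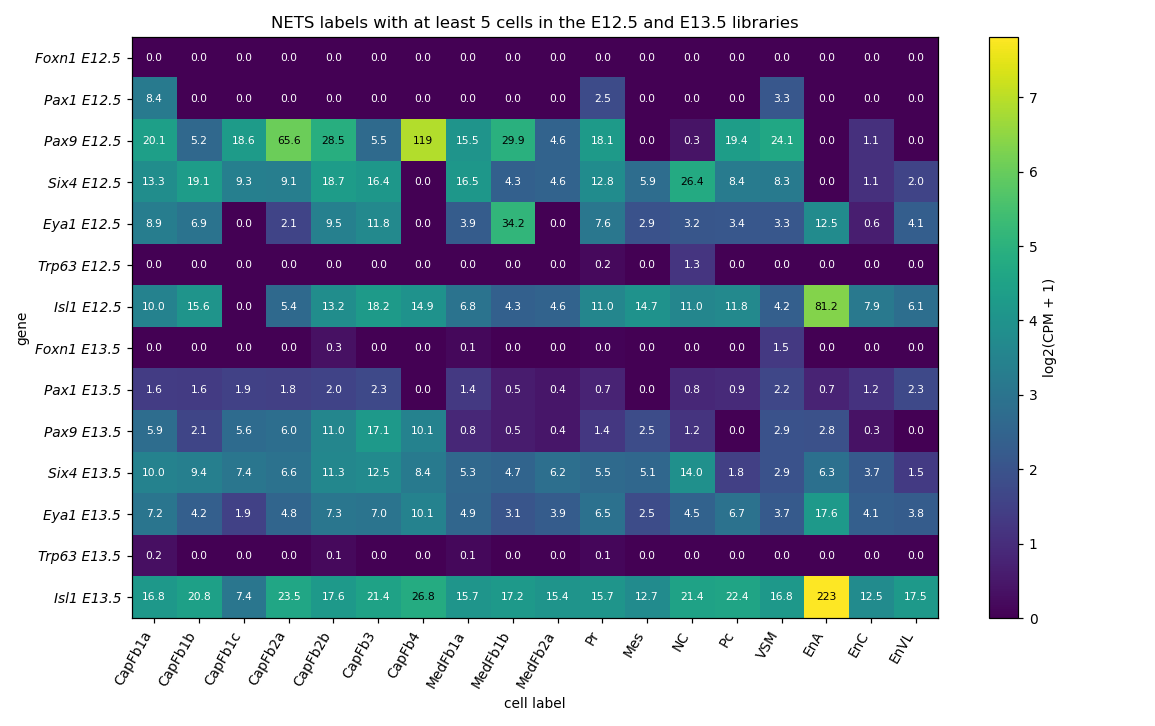
Level of the 7 members in 18 NETS labels with at least 5 cells in the E12.5 and E13.5 libraries (CPM, coloured by log2(CPM + 1)). Isl1 is highest in EnA at E13.5 (223 CPM), Pax9 in CapFb labels at E12.5, and Foxn1 is at 0 in all labels at E12.5.

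Trp63 was highest at W4 in the NETS of the age series, while in bulk gp38+CD26- cells its difference between the ages did not pass the test. In the single cells the medullary fibroblasts MedFb1b read 9.23 CPM (34 UMIs, in 25 of 261 cells) and 12.7 CPM (56 UMIs, in 44 of 318 cells) at W4 and 0 to 0.957 CPM before. Of the cells with a Trp63 UMI at W4, 82.3 and 89.3% also held the mesenchymal gene Pdgfra (48.5 and 57.5% of the other cells). Epcam was in 2.53 and 1.53% of them (1.49 and 1.37% of the other cells). None of them held Foxn1 in either library. Over all cells of these libraries Foxn1 was at only 0.315 and 0.102 CPM, so its absence from these few cells decides nothing. In bulk, gp38+CD26- cells read 14.1, 21.8 and 34.3 CPM (lowest, median, highest) at W4 and 0, 2.04 and 17.4 CPM at P0, with overlap. The fitted difference was 5.66-fold (adjusted p = 0.09 by edgeR). The 10 TEC markers of these libraries summed to 10.4, 121.97 and 287.7 CPM (lowest, median, highest) at P0 and to 11.5, 41.9 and 76.5 CPM at W4. Among them Epcam had a mean of 0.0121 CPM at P0 and 0.741 CPM at W4, and Psmb11 of 2.29 and 3.37 CPM.

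Bulk NETS were compared between P0 and W4 for the other members too. The count filter used all 84 libraries, and the members are highest in TEC. Counts of called members in NETS are therefore not read against the shares of all genes. In CD31+ cells 0 of 7 were called, with none at an unadjusted p below 0.05 and none by DESeq2 (10% of all genes called). In gp38+CD26- cells 0 were called, with 4 below 0.05 and none by DESeq2 (13.1% of all genes called). An unadjusted p below 0.05 was found for 4397 of 19969 genes in CD31+ and for 4980 in gp38+CD26- cells. In gp38+CD26+ cells 3 were called (9.89% of all genes). The called members there included Isl1, which without the library of 25702 counts read 2.15, 3.77 and 21.9 CPM (lowest, median, highest) at W4 and was at 0 in 5 of 6 libraries at P0. A fit without that library also called 3 members, Isl1 among them (adjusted p = 0.034). The 10 TEC markers of these libraries summed to 138 to 299.5 CPM at W4 and to 4.42 to 64.4 CPM at P0, and their part in these calls was not tested.

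In Ly51+gp38- cells 6 members were called, 5 higher and 1 lower at W4, where 5.84% of all genes were called higher and 5.27% lower. Pax9, the 1 lower, was at 0 in all 6 libraries at W4 and in 4 of 6 at P0. Six4 and Eya1, called higher, were at 0 in all 6 libraries at P0 and in 4 of 6 at W4. These calls thus rest on few libraries with reads. Foxn1 read 3.47, 18.3 and 56.2 CPM at W4 and 0, 1.11 and 14.8 CPM at P0, a log2 difference of 3.09 ± 1.07 (adjusted p = 0.048). Pax1 read 9.92, 24.8 and 78.01 CPM against 0, 1.56 and 10.1 CPM, a difference of 3.15 ± 1.02 (adjusted p = 0.034). The groups overlapped for both. Foxn1 was not called with DESeq2 (adjusted p = 0.12) or without the filter on low counts (adjusted p = 0.075), nor Pax1 without that filter (adjusted p = 0.051). The TEC markers of these libraries summed to 279 to 1306 CPM at W4 and to 10.2 to 203 CPM at P0, against 21203 to 29462 CPM in cTEC at W4, and all 10 had reads at W4. The part of epithelial cells in these levels was not tested, and within the prefixes 2 members were called in DFCK and 1 in TXCK, among 243 and 749 genes beside 2219 with all libraries.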

How the data were processed

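For both single-cell sets the authors deposited unnormalized counts of UMIs, and for the bulk set unnormalized counts of reads per Ensembl ID. The submitters' processing notes name Cell Ranger 3.1.0, STAR 2.5.3a, HTSeq and the builds mm10 and GRCh38. Cells were labelled by the study, and these labels were used unchanged. Doublets were not called here, and per its methods the study kept only DoubletFinder singlets and left out contaminant clusters before labelling. Bulk IDs were given symbols with GENCODE M21 (37607 of 39179), and entries of no gene (7.81 to 29.4% of counts) were left out. Library totals ranged from 25702 to 15852166 bulk counts and from 4978011 to 93040640 UMIs, and intervals and floors of 3 UMIs cover counting error only.

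The 7 genes, the gene lists and the tests were chosen with earlier results of these data known. List genes named in the text were drawn from the 3 called genes with the largest change per list and comparison, and not every gene so drawn is reported here. Each member has its 3 most alike genes. Bulk counts and UMIs summed per library were tested with edgeR 4.0.16 (R 4.3.3; filterByExpr, TMM, quasi-likelihood), with Benjamini-Hochberg adjustment over all genes tested and a threshold of 0.05. TEC groups were compared in a fit of the 36 TEC libraries and NETS groups in a fit of all 84. The SE is the log2 fold change over the root of F. Alternatives were DESeq2 1.42.0, RLE factors, no filter, title prefix, a block and leaving out libraries. The tests were checked on simulated counts. Levels were computed in Python with numpy 2.4.6 and scipy 1.17.1, and RPKM from union exon lengths. No column of another series was used (0).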

Additional observations from a re-analysis of the deposited data

Results flagged for a closer look

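Of 84 sets of a member in a bulk group that were examined for a library far from the others, 23 were singled out by the gap of the highest library to the next, and in 7 of these the other 5 libraries were at 0. The rule singles out about 1 set in 20 of normally distributed values. CPM with many libraries at 0 are not so distributed, so the 23 sets are not read as an excess over chance. The library of 25702 counts gave 4 of them in gp38+CD26+ cells at W4, with Foxn1 at 428 CPM, Trp63 at 350 CPM, Pax1 at 311 CPM and Isl1 at 77.8 CPM. In TEC the highest libraries were Eya1 at 78.8 CPM in mTEC at W4 and at 34.6 CPM in mTEChi, Isl1 at 148.4 CPM in cTEC at P0, and Pax1 at 100.7 CPM and Six4 at 69.95 CPM in mTEC at P0. In Ly51+gp38- cells the highest library read 14.8 CPM for Foxn1 and 15.0 CPM for Trp63 at P0, and 5.71 CPM for Eya1 at W4. In CD31+ cells the highest library read 3.25 CPM for Eya1 and 3.17 CPM for Trp63 at P0, and 7.20 CPM for Eya1, 2.16 CPM for Trp63, 1.14 CPM for Foxn1 and 0.07999 CPM for Pax9 at W4. In gp38+CD26+ cells at P0 it read 5.35 CPM for Isl1, 0.415 CPM for Eya1 and 0.187 CPM for Pax1, and in gp38+CD26- cells at W4 2.66 CPM for Pax1 and 1.56 CPM for Isl1.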

How the results depend on the processing

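Most results kept their direction and their side of the threshold: of the single-gene values under the alternatives 1122 did so, 26 passed newly, 25 no longer passed and 20 changed sign. Members called between cTEC and mTEC at P0 were 3 in DFCK alone. Between mTEChi and mTEClo 1 was called in TXCK alone. In cTEC from P0 to W4 they were 0 in DFCK, 1 in TXCK and 6 in the fit of the cTEC libraries alone. In mTEC from P0 to W4 they were 3 with DESeq2 (among 1866 genes), 0 in either prefix and 1 to 4 with a library left out, and the interaction gave 0 to 1 in this way. In Ly51+gp38- cells 2 were called in DFCK and 1 in TXCK. In gp38+CD26+ cells 5 were called with DESeq2 (among 2645 genes), 0 in DFCK (among 291) and 1 in TXCK (among 862). In pooled newborn NETS 2 were called with DESeq2 (among 36 genes), 3 without the count filter (among 150) and 1 with the replicate block (among 17). With a library left out, early against late within labels gave 22 to 36 calls. Eya1 in TlTEC was 556 CPM after thinning to 2000 UMIs. The causes of these changes were not tested.

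The differences that changed sign had not passed the test. Pax1 in mTEChi against mTEClo was 0.10 in TXCK. Six4 there was -0.24 in TXCK, -0.12 with the replicate block and -0.22 to 0.25 with a library left out. Foxn1 in cTEC from P0 to W4 was -0.052 in TXCK. In pooled newborn TEC Six4 was -0.0087 with RLE factors, -0.0085 with DESeq2 and -0.015 without the filter, and with a library left out Six4 ran from -0.19 to 0.13, Eya1 from -0.013 to 0.39 and Isl1 from -0.12 to 0.21. Deviations of libraries with the same number correlated at -0.036 to 0.070 in the bulk pairs and at -0.42 to 0.087 between the genotypes. Other bulk libraries correlated at means of -0.0056 to -0.0014. In each pair of bulk groups 3 of 6 libraries were most like the library of their own number, and 0 of 3 between the genotypes. These values do not settle whether the numbers pair the bulk libraries, and the main fits use no pairing. With the replicate block Isl1 over the 5 ages had an adjusted p of 0.065, and besides the pooled newborn NETS no count changed by over 1.5 times. RLE factors moved the median of all genes between cTEC and mTEC at W4 from -0.24 to -0.35. Depth limits Foxn1 in NETS, with 0 to 9 UMIs per library.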
